A study of Mus musculus with 30 samples.

Results

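The p38 stress-activated protein kinase module was followed on 30 arrays of mouse embryonic fibroblasts (MEFs) through 10 genes: the 4 p38 isoforms Mapk14 (p38α), Mapk11 (p38β), Mapk12 (p38γ) and Mapk13 (p38δ), the upstream kinases Map2k3 (MKK3) and Map2k6 (MKK6), and the substrate kinases Mapkapk2 (MK2), Mapkapk3 (MK3), Mapkapk5 (MK5) and Rps6ka5 (MSK1). The genes were chosen by name, and a probe belonged to one of them when the array files gave that symbol as its gene name. All 10 were on the array, among 21689 named genes, and 14 probes read them. The study asked which stress responses of MEFs need p38α, and the module itself poses a narrower question: whether another isoform or an upstream kinase was higher in the cells that lack p38α, or after stress.

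The cells were immortalised MEFs in exponential growth, wild type or p38α knock out (p38α-/-), and each of the 15 groups held 2 arrays. Wild type MEFs received 25 ng/ml anisomycin for 45 min, 100 ng/ml TNFα for 45 min, or 100 mM NaCl for 45 min, 2 h or 8 h, each alone or with SB203580, an inhibitor of p38α and p38β, and SB203580 was also given alone. p38α-/- MEFs were left untreated or received anisomycin for 45 min, TNFα for 45 min or NaCl for 2 h. Wild type and p38α-/- MEFs were different immortalised cells, so the effect of the genotype cannot be told apart from other differences between these cells. The treatment protocol gives SB203580 as 10 µM from 30 min before the stress, whereas the sample titles write 10 mM and 2 h. No wild type array was untreated: the untreated wild type state was present as the Cy3 channel of each array, a pool of 2 untreated wild type MEF cultures.

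In the p38 pathway, MAP kinase kinase kinases answer stress or cytokines by phosphorylating MKK3 and MKK6, which in turn phosphorylate the p38 isoforms, and active p38 phosphorylates kinases such as MK2 and MSK1 as well as transcription factors. MKK6 can activate all the p38 isoforms, while MKK3 acts on fewer of them. p38α is the widely expressed isoform, and the pathway restrains itself through phosphatases and through feedback of p38α on its activators. All of this signalling works by phosphorylation, and the arrays measured mRNA.

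Every value below is a log2 ratio of the sample (Cy5) to the untreated wild type pool (Cy3), so that 0 equals the pool and 1 is a 2-fold higher level. A difference passed the test at an adjusted p under 0.05, adjusted over all genes measured in that comparison. The test was a t test with variances moderated by limma, called limma's test below. No array swapped the dyes, so a test against the pool leaves out the spread of the pool and keeps any bias between the dyes, and differences between groups of arrays are free of both. Of the spots, 6.78 to 44.8% per array (median 16.0%) carried an outlier mark and were left out, and where both arrays of a group lost a gene it had no value there. In bulk RNA, fewer cells of a type and less RNA per cell cannot be told apart. All 10 listed fibroblast markers were well above background on the 30 arrays, but so were 5 of 5 leukocyte, 2 of 2 epithelial and 3 of 4 endothelial markers on the array, and this mark does not separate cell types here. Between the genotypes, 2 of 8 fibroblast markers were higher in p38α-/- MEFs (Col1a1 by 0.50 and Thy1 by 0.58), and the endothelial receptor Kdr was lower by 1.59 (adjusted p = 0.000636), and the part of these markers in the results was not tested. The arrays were scanned on 4 days: the first wild type arrays on one day, the second wild type arrays together with the first p38α-/- arrays on another, and the second p38α-/- arrays on the remaining 2.

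**Figure D1:**
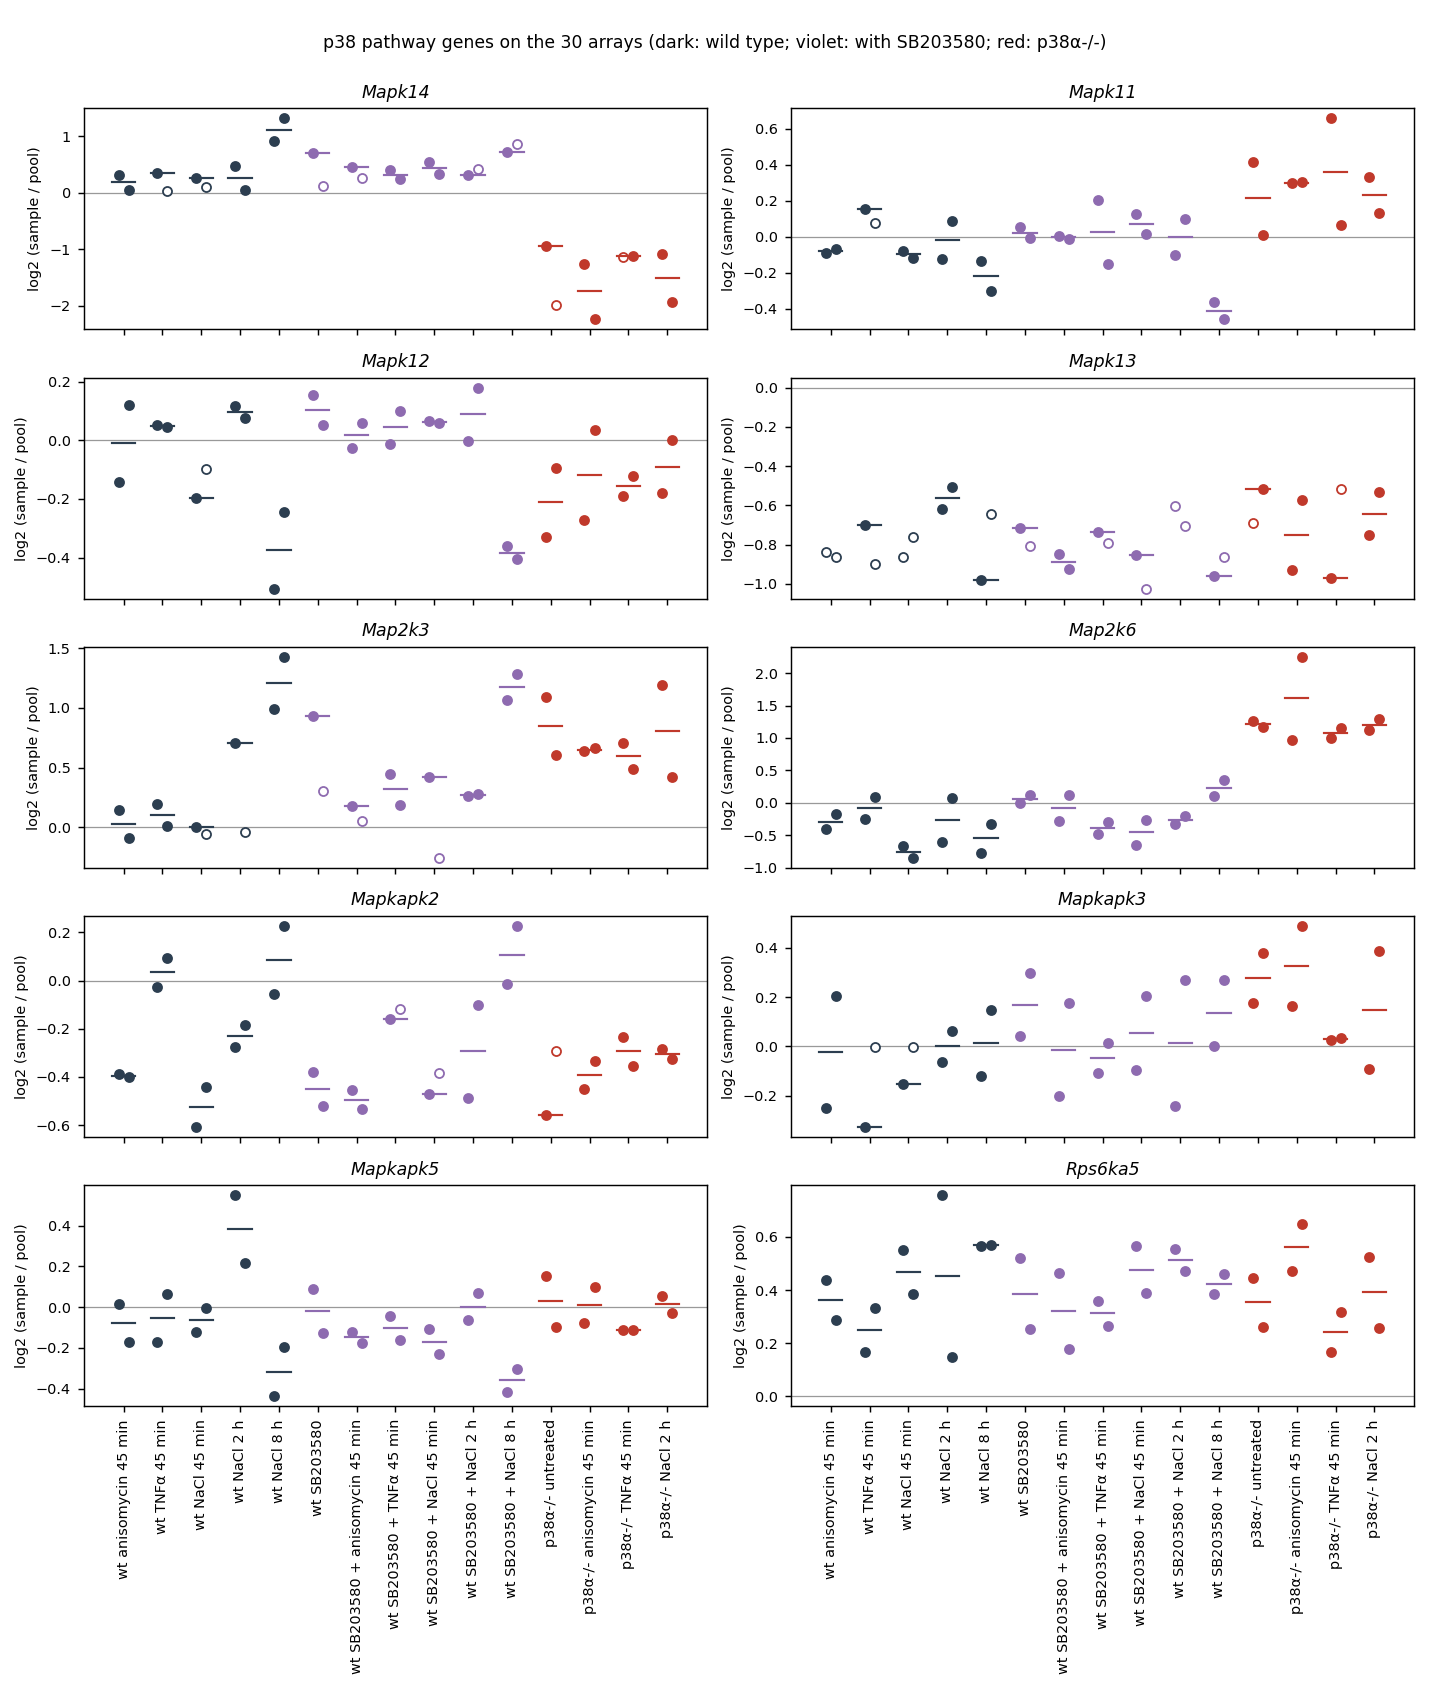
Log2 ratio of sample to untreated wild type pool (y axis, scale set per gene) for the 10 genes in the 15 groups (x axis); each point is 1 array, bars are group means, and open points are arrays whose spots carried an outlier mark and did not enter the means. Mapk14 lay below 0 on the 8 p38α-/- arrays and above 0 on the 22 wild type arrays, Map2k6 lay highest on the 8 p38α-/- arrays, and Map2k3 and Mapk14 reached their highest wild type values at 8 h of NaCl.

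The sequences before the start sites of Map2k6, Map2k3 and Mapk14 are shown because the results turn on these 3 genes: Map2k6 and Mapk14 passed between the genotypes, and Map2k3 and Mapk14 were above the pool by 2-fold or more after 8 h of NaCl. RefSeq promoter windows (build GRCm38.p6) matched all 10 genes with 14 windows, and the 250 bases before the most upstream start of each gene are printed, with capitals for matches to 6 short motifs on either strand: the AP-1 site, which reads TGA followed by any base and then TCA, the cAMP response element TGACGTCA, the GC box GGGCGG, the CCAAT box, the TATA box searched as TATAAA, and the short NFAT-type core TGGAAA. No 2 different motifs overlapped in these windows.
Map2k6, chr11:110398852-110399101, + strand: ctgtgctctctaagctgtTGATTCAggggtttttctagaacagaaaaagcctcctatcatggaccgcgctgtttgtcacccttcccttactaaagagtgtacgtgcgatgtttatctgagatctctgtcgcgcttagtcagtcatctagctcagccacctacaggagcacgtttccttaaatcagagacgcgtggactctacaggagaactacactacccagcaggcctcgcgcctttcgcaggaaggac
Map2k3, chr11:60931804-60932053, + strand: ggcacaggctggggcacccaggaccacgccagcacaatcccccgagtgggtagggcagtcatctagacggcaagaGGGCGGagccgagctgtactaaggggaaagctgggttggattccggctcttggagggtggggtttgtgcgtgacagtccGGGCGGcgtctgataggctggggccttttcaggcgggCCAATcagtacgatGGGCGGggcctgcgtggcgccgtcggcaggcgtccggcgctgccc
Mapk14, chr17:28691092-28691341, + strand: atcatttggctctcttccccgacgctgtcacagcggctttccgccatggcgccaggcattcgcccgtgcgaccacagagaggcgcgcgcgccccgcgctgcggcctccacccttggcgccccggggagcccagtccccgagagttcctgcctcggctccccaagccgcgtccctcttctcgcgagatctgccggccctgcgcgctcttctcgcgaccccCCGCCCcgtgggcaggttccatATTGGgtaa

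The Map2k6 window held 1 match, to the AP-1 site, starting 232 bases before the start; 6.75% of all 32851 promoter windows of this length hold that motif. The Map2k3 window held 3 GC boxes, present in 32.7% of all windows, and 1 CCAAT box, present in 33.8%. Mapk14 also held 1 GC box and 1 CCAAT box, 31 and 9 bases before its start. TGACGTCA (1.55% of windows), TATAAA (12.4%) and TGGAAA (18.6%) had no match in the 3 windows printed. The Mapk14 and Map2k3 windows were 70.4% and 67.6% G or C, against a median of 52.4% over all windows and 50.4% for Map2k6. Map2k6 also had windows 2 and 3, at later starts, and neither held an AP-1 match. Window 2 held 1 GC box and window 3 held 1 TATA box. Window 2 of Mapk14, also at a later start, held no match to the motifs. Which start the MEFs use was not tested. A match is a description of the letters and shows no binding.

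Mapk14, the gene knocked out, checks the labels first. Over the 3 stresses that both genotypes received, the wild type arrays read 0.32 and 0.05 with anisomycin, 0.34 with TNFα and 0.47 and 0.05 with NaCl at 2 h. The p38α-/- arrays read -1.26 and -2.24 with anisomycin, -1.13 with TNFα and -1.09 and -1.93 with NaCl at 2 h. The groups did not overlap, and the mean difference of -1.72 (SE 0.23, 95% CI -2.23 to -1.22) left 0.303 of the wild type level (adjusted p = 0.00146). The 8 p38α-/- arrays, outlier spots included, lay between -2.24 and -0.94 and the 22 wild type arrays between 0.03 and 1.31, without overlap. The pool is itself wild type, so a wild type label gives no side of it. All 22 wild type arrays nonetheless lay above it (median 0.33), an offset present in every wild type group. The mRNA was lower and not gone: the probe was well above background on every p38α-/- array, and which part of the gene was deleted, or whether the probe lies in it, is not given in the sources used here. Within the day on which both genotypes were scanned the difference was -1.22 (SE 0.13, adjusted p = 0.0584).

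Among the p38α-/- arrays, Mapk14 varied within treatments as well as between them. The 4 first arrays, scanned on one day, read -0.94 untreated, -1.26 with anisomycin, -1.14 with TNFα (an outlier spot) and -1.09 with NaCl. Of the second arrays, the 3 scanned together read -1.98 (an outlier spot), -2.24 and -1.93, and the TNFα array scanned alone read -1.13. The lower values thus lay on 1 scan day, whose part in the spread of Mapk14 was not tested.

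Mapk11 and Mapk12 did not pass the test between the genotypes, and Mapk13 had too few unmarked spots for it. Of the 9 genes that could be compared, 2 passed, Mapk14 and Map2k6, beside 7.65% of all 18316 genes tested (3.47% higher and 4.19% lower in p38α-/- MEFs). The median difference of the 9 was 0.04, against 0.01 over all genes.

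Mapk11, the isoform closest to p38α and the other target of SB203580, read 0.30 and 0.30 with anisomycin, 0.66 and 0.06 with TNFα and 0.33 and 0.13 with NaCl at 2 h in p38α-/- MEFs. The wild type arrays read -0.09 and -0.07, 0.16, and -0.12 and 0.09. All 8 p38α-/- arrays were above the pool, but the lowest of the matched ones (0.06) lay below the 2 highest wild type arrays. The difference of 0.28 (SE 0.11, 95% CI 0.05 to 0.51), or 1.21-fold, had an adjusted p of 0.126. It also did not pass with outlier spots kept, normexp and loess, or median centring. Nor did the difference pass with the brightest probe, spots well above background or only the groups compared. It passed with the replicate number as a block (0.28, adjusted p = 0.0424), with the scan day as a block (0.47, adjusted p = 0.0127), with the authors' own normalized table (0.29, adjusted p = 0.0445) and without the second p38α-/- TNFα array (0.38, adjusted p = 0.0261), and within the shared scan day it was 0.30 (SE 0.13, adjusted p = 0.346).

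Mapk12, the isoform known best from skeletal muscle, differed by -0.17 (SE 0.08, 95% CI -0.33 to -0.01, adjusted p = 0.19). Its p38α-/- arrays lay between -0.27 and 0.04 and its wild type arrays between -0.14 and 0.12, with overlap. With the scan day as a block the difference was -0.29 (adjusted p = 0.0355). Its 2 probes gave -0.11 and -0.18.

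Mapk13 could not be compared from unmarked spots, because both wild type anisomycin spots carried outlier marks. With those spots kept, the 6 wild type arrays ran from -0.90 to -0.50 (median -0.77) and the 6 p38α-/- arrays from -0.97 to -0.52 (median -0.66), which overlap over nearly their whole length. The difference was 0.02 (SE 0.09, 95% CI -0.16 to 0.21, adjusted p = 0.874). Mapk13 was below the pool on all 30 arrays whatever the genotype or treatment, from -1.02 to -0.50, an offset that a test against the pool reads as a change and a test between groups does not.

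**Figure D2:**
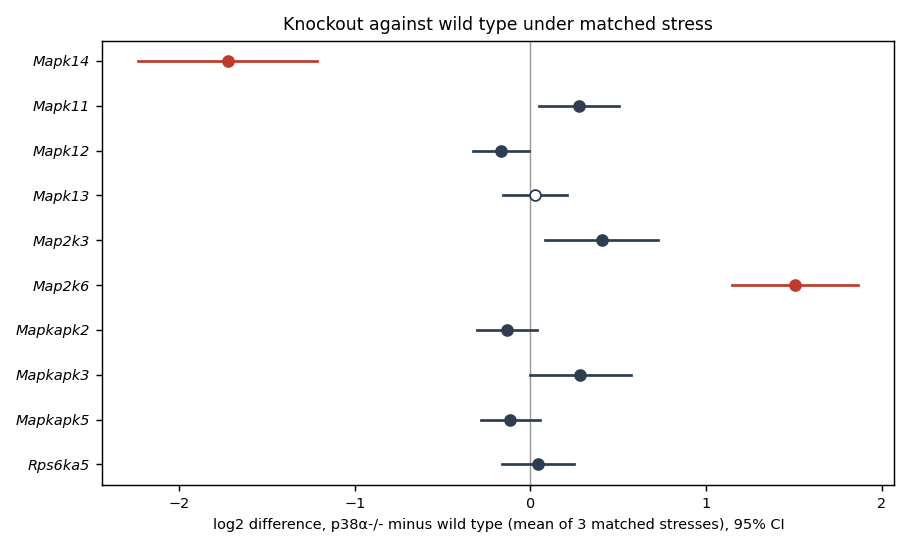
Difference between p38α-/- and wild type MEFs (x axis, log2, mean over anisomycin, TNFα and NaCl at 2 h) for the 10 genes (y axis), with 95% confidence intervals from the moderated fit. Red marks an adjusted p under 0.05, reached by Mapk14 (-1.72) and Map2k6 (1.51); the open point is Mapk13 with outlier spots kept.

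Map2k6, the MKK6 kinase upstream of p38, was the member that was higher in the knockout. Its p38α-/- arrays read 1.26 and 1.16 untreated, 0.98 and 2.25 with anisomycin, 1.00 and 1.15 with TNFα and 1.12 and 1.29 with NaCl at 2 h. The matched wild type arrays read -0.40 and -0.18, -0.25 and 0.09, and -0.61 and 0.08. The lowest p38α-/- array (0.98) lay above the highest of all 22 wild type arrays (0.35). Over the 3 matched stresses the difference was 1.51 (SE 0.17, 95% CI 1.15 to 1.87), or 2.84-fold, with an adjusted p of 2.62e-05. It passed under each of the 10 other settings tried, from 0.93 to 1.51, and without each of the 12 arrays in turn, from 1.30 to 1.72. Within the shared scan day it was 1.04 (SE 0.10, adjusted p = 0.0316).

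Both probes of Map2k6 showed this. The first gave a difference of 1.43 (SE 0.15, adjusted p = 3.29e-05) and the second 1.59 (SE 0.25, adjusted p = 0.000784). They did not share a level in wild type cells: the first lay between -0.14 and 0.62 (median 0.16) on the wild type arrays, and the second between -1.49 and 0.26 (median -0.61). The second probe was not well above background in Cy5 on 6 wild type arrays, among them both with NaCl at 45 min, so its low wild type values are bounded by background. The first probe was well above background on all 30.

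Map2k3, the MKK3 kinase, was higher than the pool in untreated p38α-/- MEFs and did not pass the test between the genotypes under stress. Over both genotypes it was above the pool on 24 of its 25 measured arrays, and on 26 of 30 with outlier spots kept. A test against the pool carries that offset. The p38α-/- arrays read 1.09 and 0.60 untreated, 0.64 and 0.66 with anisomycin, 0.71 and 0.49 with TNFα and 1.19 and 0.42 with NaCl at 2 h. The matched wild type arrays read 0.15 and -0.09, 0.19 and 0.01, and 0.70 with NaCl, whose second spot (-0.04) carried an outlier mark. The wild type array at 0.70 lay within the p38α-/- range of 0.42 to 1.19, and the other 4 unmarked wild type arrays lay below it. The difference of 0.41 (SE 0.15, 95% CI 0.09 to 0.73), or 1.32-fold, had an adjusted p of 0.116. It also did not pass with normexp and loess, median centring or the scan day as a block. Nor did the difference pass with the brightest probe, spots well above background or only the groups compared. It passed with the replicate block (0.41, adjusted p = 0.049), with outlier spots kept (0.53, adjusted p = 0.0401), with the authors' table (0.51, adjusted p = 0.0326) and without the second p38α-/- NaCl array (0.53, adjusted p = 0.0323), and read 0.71 (SE 0.13, adjusted p = 0.111) within the shared scan day.

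Against the pool, untreated p38α-/- MEFs differed in 3 of the 10 genes, beside 14.0% of 19268 genes tested (7.16% higher, 6.85% lower). Map2k6 was higher by 1.21 (SE 0.21, adjusted p = 0.0011) and Map2k3 by 0.85 (SE 0.17, adjusted p = 0.00543), and Mapkapk2 was lower (-0.56, SE 0.14, adjusted p = 0.0161, from 1 array). Without the first array, Map2k3 read 0.60 (adjusted p = 0.233) and Map2k6 1.16 (adjusted p = 0.0613). Mapk14 itself read -0.94 from its 1 unmarked spot (SE 0.34, adjusted p = 0.098), and -1.46 (adjusted p = 0.000248) with the marked one. With the replicate block 7 genes passed, adding Mapk14 (-1.40, adjusted p = 0.00216), Mapk13 (-0.66, adjusted p = 0.0368), Mapkapk3 (0.28, adjusted p = 0.0393) and Rps6ka5 (0.35, adjusted p = 0.0293). With the scan day as a block Mapk12 passed on the lower side (-0.33, adjusted p = 0.0173). The share of all genes that passed with either block is not given here.

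The substrate kinases did not pass the test between the genotypes. Mapkapk2, which p38α phosphorylates and which stabilises cytokine mRNA, differed by -0.13 (SE 0.08, 95% CI -0.31 to 0.04, adjusted p = 0.328). Its probes went apart: the first gave 0.10 (SE 0.09, adjusted p = 0.513) and the second -0.40 (SE 0.12, adjusted p = 0.064). On the second probe the p38α-/- arrays lay between -1.06 and -0.46 (median -0.74) and the wild type arrays between -0.79 and 0.33 (median -0.37), while on the first the p38α-/- arrays lay between -0.20 and 0.11 (median 0.03) and the wild type arrays between -0.43 and 0.21 (median -0.15). The fall of Mapkapk2 in untreated p38α-/- MEFs likewise stood on the second probe (-1.06, adjusted p = 0.0049) and not on the first (-0.05, adjusted p = 0.87).

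Mapkapk3, a close relative of MK2, differed by 0.28 (SE 0.14, 95% CI -0.00 to 0.57, adjusted p = 0.208), and by -0.10 within the shared scan day. Mapkapk5 differed by -0.11 (SE 0.08, 95% CI -0.28 to 0.05, adjusted p = 0.395). Rps6ka5, a kinase of histone H3 and CREB, differed by 0.04 (SE 0.10, 95% CI -0.16 to 0.25, adjusted p = 0.814). The Rps6ka5 arrays overlapped almost fully, from 0.15 to 0.76 in wild type and 0.17 to 0.65 in p38α-/- MEFs, and all 30 were above the pool.

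**Figure D3:**
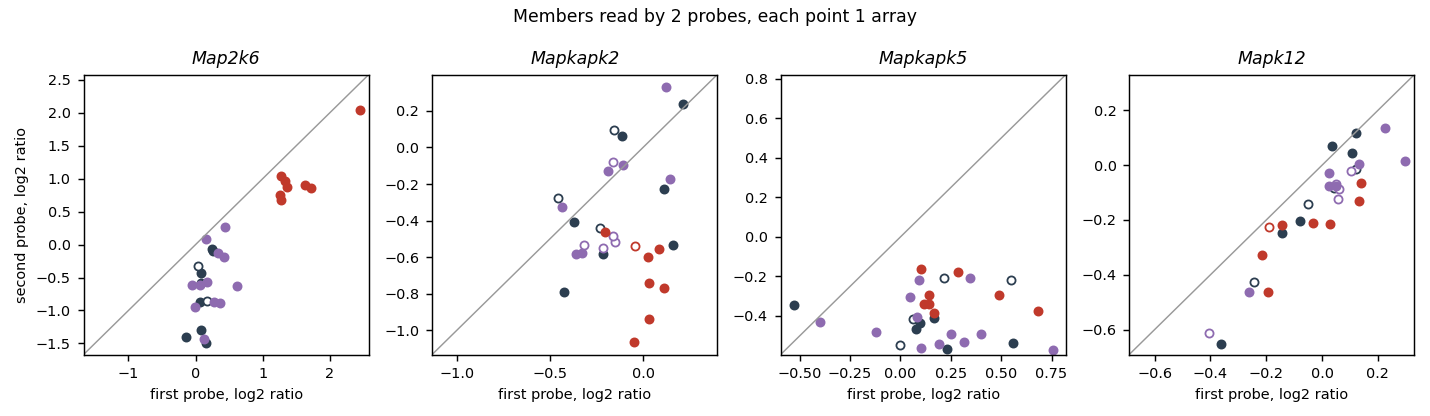
Second probe against first probe (both axes log2 ratio to the pool) for the 4 genes read by 2 probes; each point is 1 array (dark wild type, violet with SB203580, red p38α-/-), open points have an outlier mark on either probe, and the line is equality. Both Map2k6 probes set the p38α-/- arrays apart, the second Mapkapk2 probe had a lower median in p38α-/- MEFs (-0.74) than in wild type MEFs (-0.37), and the Mapkapk5 probes lay on opposite sides of 0 on most arrays.

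All tests of stress against the pool share that pool. With anisomycin 1 of 9 passed against the pool, beside 10.9% of genes: Mapkapk2 read -0.39 and -0.40 (mean -0.39, SE 0.10, adjusted p = 0.0198). Mapkapk2 was below the pool on 24 of its 27 measured arrays, over all groups (median -0.33), untreated p38α-/- MEFs and SB203580 alone among them. Without the first or the second array its adjusted p was 0.219 or 0.125. With the replicate block Rps6ka5 passed too (0.36, adjusted p = 0.0275). With TNFα 1 of 10 passed, beside 8.56%, and that was Mapk13, whose -0.70 on 1 array is its offset on all arrays. Mapk14, Mapk11 and Map2k3 read at most 0.34, 0.16 and 0.19 on the wild type arrays of these 2 stresses without SB203580.

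With NaCl at 45 min 3 of 9 passed, beside 7.32%. Mapkapk2 was lower (-0.61 and -0.44, mean -0.52, SE 0.10) and Rps6ka5 higher (0.55 and 0.39, mean 0.47, SE 0.12), though Mapkapk2 was below the pool on 24 of 27 arrays and Rps6ka5 above it on all 30. The -0.44 of Mapkapk2 came from 1 of its 2 probes, and with outlier spots kept that array read -0.34 (mean -0.47). Without the first array Mapkapk2 read -0.44 (adjusted p = 0.14) and Rps6ka5 0.39 (adjusted p = 0.29). Map2k6 was lower on the mean of its probes (-0.76), which came from the second probe alone (-1.17, not well above background on either array), while the first read 0.16 (adjusted p = 0.761). With NaCl at 2 h 3 of 10 passed, beside 9.30%. Rps6ka5 read 0.76 and 0.15 (mean 0.45, adjusted p = 0.791 without the first array), and Mapk13 was at its offset. Mapkapk5 read 0.55 and 0.22 (mean 0.38) only because both spots of its second probe, whose wild type values lay between -0.57 and -0.21, carried outlier marks; with them kept it was 0.08 (adjusted p = 0.514). Map2k3 passed at 2 h with the replicate block (0.70, adjusted p = 0.041, from 1 array).

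NaCl at 8 h gave the most calls of the 5 stresses. Of 10 genes 6 passed against the pool, 3 higher and 3 lower, beside 18.9% of all genes (9.02% higher, 9.90% lower). Map2k3 read 0.99 and 1.43 (mean 1.21, SE 0.17, 2.31-fold, adjusted p = 0.000233). Mapk14 read 0.92 and 1.31 (mean 1.11, SE 0.24, 2.17-fold, adjusted p = 0.0092), the 2 highest of its wild type arrays, and 0.92 without the second array (adjusted p = 0.144). The wild type arrays of Mapk14 all lay above the pool, outlier spots kept (22 arrays, median 0.33), so its value at 8 h carries that offset. Rps6ka5 read 0.57 on both arrays (adjusted p = 0.00215), near its level at the other times. Mapk12 was lower (-0.51 and -0.24, mean -0.38, SE 0.09, adjusted p = 0.00877; -0.24 without the first array, adjusted p = 0.263), on both probes. Mapkapk5 was lower by less (-0.44 and -0.20, mean -0.32, adjusted p = 0.0284; -0.20 without the first array, adjusted p = 0.429). Its first probe read -0.53 and 0.07 and did not pass alone (-0.23, adjusted p = 0.444), nor did the gene by its brightest probe (-0.23, adjusted p = 0.419), and its second probe lay below the pool on all 30 arrays (-0.57 to -0.16). Mapk13 was at its offset. With the replicate block Map2k6 passed as well, on the lower side (-0.55, adjusted p = 0.0223). That value came from its second probe, which read -1.40 on the first array, where it was not well above background, and -0.32 on the second, while the first probe read -0.14 and 0.04 (an outlier spot).

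The comparison of NaCl at 8 h with NaCl at 45 min, which cancels the pool, was passed by 2 of 9 members, Map2k3 and Mapkapk2, beside 5.35% of genes (2.46% higher, 2.89% lower). Map2k3 rose by 1.21 (SE 0.29, 95% CI 0.58 to 1.83, adjusted p = 0.0288), from 0.00 on the single unmarked array at 45 min. Without the second 8 h array the rise was 0.99 (adjusted p = 0.14). Mapkapk2 rose by 0.61 (SE 0.14, 95% CI 0.31 to 0.91, adjusted p = 0.0181), from -0.61 and -0.44 to -0.06 and 0.23 on the 2 arrays of each time. Both Mapkapk2 probes moved alike (0.59 and 0.62), though neither passed alone, and the rise was 0.52 (adjusted p = 0.128) without the first 45 min array and 0.47 (adjusted p = 0.16) without the second 8 h array. Mapk14 rose by 0.85 (SE 0.42, 95% CI -0.08 to 1.78, adjusted p = 0.357), and by 0.92 (adjusted p = 0.0464) with the replicate block. Mapk11 read -0.08 and -0.12 at 45 min and -0.13 and -0.30 at 8 h, a difference of -0.12 (adjusted p = 0.838).

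With SB203580 present, none of the 10 members passed between 8 h and 45 min of NaCl in limma's test, beside 4.59% of genes; 5 of the 10 and 3203 of all 20039 genes had an unadjusted p under 0.05. The values ran the same way for Map2k3, which read 0.43 at 45 min and 1.06 and 1.29 at 8 h, a difference of 0.75 (SE 0.29, 95% CI 0.12 to 1.38, adjusted p = 0.201). The second 45 min spot of Map2k3 (-0.26) carried an outlier mark, and with it kept the difference was 1.09 (adjusted p = 0.022). Mapkapk2 differed by 0.58 (SE 0.17, adjusted p = 0.0745), and passed with outlier spots kept (0.53, adjusted p = 0.0125). Mapk12 read 0.07 and 0.06 at 45 min and -0.36 and -0.41 at 8 h, and its difference of -0.45 (SE 0.13, adjusted p = 0.0659) passed with the replicate block (adjusted p = 0.0225). Mapk11 read 0.12 and 0.02 at 45 min and -0.36 and -0.46 at 8 h, the lowest of its 29 measured arrays, with a difference of -0.48 (SE 0.17, adjusted p = 0.143) that passed with the scan day as a block (adjusted p = 0.0446).

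**Figure D4:**
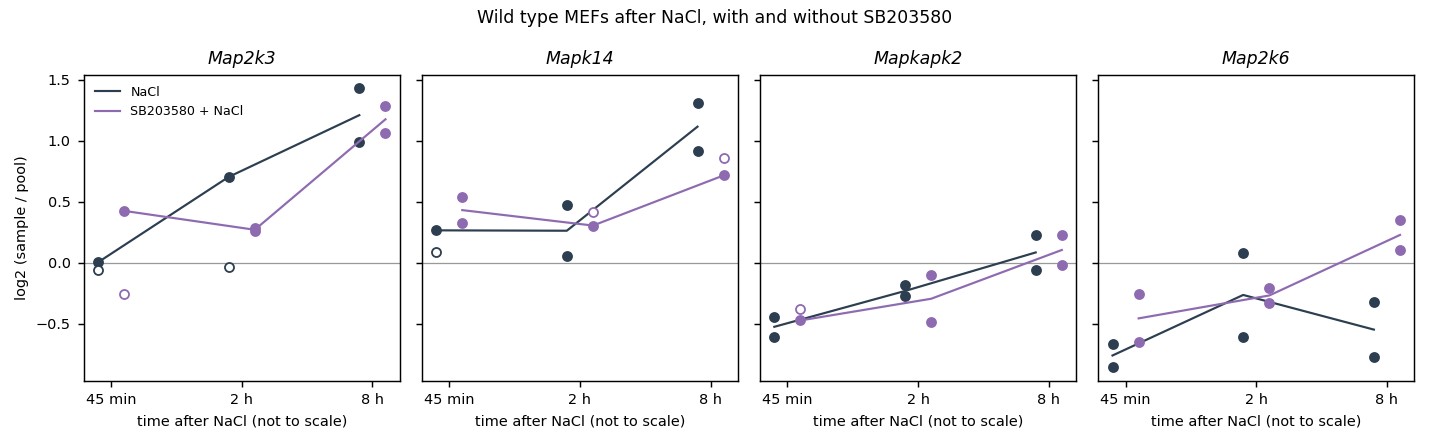
Log2 ratio to the pool (y axis) at 45 min, 2 h and 8 h of NaCl (x axis, not to scale) in wild type MEFs without (dark) and with SB203580 (violet); points are arrays, lines join group means, and open points carried an outlier mark and are not in the means. Map2k3 reached 0.99 to 1.43 at 8 h in both arms, and Mapkapk2 went from -0.61 to -0.38 at 45 min to -0.06 to 0.23 at 8 h.

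No member passed for an effect of SB203580 on a stress. Of the 9 or 10 members tested, 0 passed in limma's test in each of the 5 comparisons of stress with and without the inhibitor, beside 0.0213% of genes for anisomycin, 0% for TNFα, 0% for NaCl at 45 min, 0% at 2 h and 0.105% at 8 h. At an unadjusted p under 0.05 the members numbered 0, 0, 0, 1 and 1, and all genes 357, 243, 394, 602 and 870. At 8 h the difference with the inhibitor was -0.03 for Map2k3 (95% CI -0.55 to 0.48) and -0.40 for Mapk14 (95% CI -1.33 to 0.53), and the Mapk14 interval leaves room for a difference in either direction. Map2k6 differed by 0.78 (SE 0.30, 95% CI 0.15 to 1.40, adjusted p = 0.855), from -0.77 and -0.32 to 0.11 and 0.35; on the first of the 4 arrays its second probe was not well above background.

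With SB203580 alone 4 of 10 members passed against the pool, beside 27.4% of all genes. Map2k3 read 0.93 on its 1 unmarked array, and 0.31 on the other. Mapkapk2 read -0.38 and -0.52 (mean -0.45; adjusted p = 0.0741 without the first and 0.0583 without the second array), Rps6ka5 0.52 and 0.25 (mean 0.39), and Mapk13 stood at its offset. Mapk14 passed with the replicate block (0.63, adjusted p = 0.0331, from 1 array at 0.70). Map2k6 did not pass on the mean of its probes (0.06) but did on its first probe alone (0.52, adjusted p = 0.0436). With outlier spots kept, the second Mapkapk2 array read -0.33 in place of -0.52.

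In p38α-/- MEFs no member passed with stress. Against untreated p38α-/- MEFs 0 of 10 passed in limma's test with anisomycin, TNFα and NaCl at 2 h, beside 0.0731%, 0.0636% and 0.879% of genes, and 0 of 10 had an unadjusted p under 0.05 in each, against 657, 609 and 1879 of all genes. Map2k6 differed by 0.40 with anisomycin (95% CI -0.22 to 1.02), -0.14 with TNFα (95% CI -0.76 to 0.49) and -0.01 with NaCl (95% CI -0.63 to 0.61). Mapk11 differed by 0.09 (95% CI -0.28 to 0.45), 0.15 (95% CI -0.22 to 0.51) and 0.02 (95% CI -0.35 to 0.38). These 3 comparisons share the untreated p38α-/- arrays.

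Differences of induction between the genotypes, each p38α-/- stress minus untreated p38α-/- set against the wild type stress minus the pool, passed in 0 members in limma's test for anisomycin, TNFα and NaCl at 2 h, beside 0.548%, 0.224% and 0% of genes. At an unadjusted p under 0.05 they numbered 1, 0 and 3 members and 2784, 2655 and 2603 genes. This contrast does not cancel an offset between the pool and the Cy5 channel: with outlier spots kept, Mapk13 passed for anisomycin (0.70, adjusted p = 0.0281) and TNFα (0.66, adjusted p = 0.0353), values that carry its offset.

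Around the members, 52 of 57 other listed genes of the pathway (kinases above MKK3 and MKK6, adaptors, phosphatases, and substrates) were on the array. Between the genotypes 7 of 44 passed, 3 higher and 4 lower, or 6.82% and 9.09%, beside 3.47% and 4.19% of all genes, with a median difference of 0.02 (0.01 over all genes). Zfp36, whose protein tristetraprolin destabilises cytokine mRNA and is a target of MK2, was lower by 2-fold or more (-1.45, SE 0.16, adjusted p = 3.27e-05). The others, named after their values were seen, were smaller: the upstream kinase Taok1 (0.50), the substrate kinase Rps6ka4 (0.46, MSK2, the relative of Rps6ka5) and the factor Usf1 (0.37) were higher, and the upstream kinase Map3k1 (-0.43) and the factors Mef2c (-0.62) and Ddit3 (-0.82) were lower. None of the 10 phosphatases tested passed between the genotypes.

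In untreated p38α-/- MEFs 11 of 48 listed genes passed against the pool, 5 higher and 6 lower (10.4% and 12.5%, beside 7.16% and 6.85% of all genes). The factor Hsf1 (1.12) and the p38 and JNK phosphatase Dusp10 (1.06) were among them, but read nearly the same in wild type MEFs with SB203580 alone (1.03 and 1.04) and did not pass between the genotypes. The RNA-binding protein Hnrnpa0 (-1.34) was also below the pool with each of the 5 stresses in wild type MEFs (-1.75 to -0.90). Against the pool in wild type MEFs, 15 of 45 passed with anisomycin (12 higher), 8 of 49 with TNFα (4 higher), and 6, 11 and 13 of 49, 49 and 51 with NaCl at 45 min, 2 h and 8 h (3, 9 and 8 higher). Over all genes the shares were 10.9%, 8.56%, 7.32%, 9.30% and 18.9% in the same order, against 33.3%, 16.3%, 12.2%, 22.4% and 25.5% of the listed genes. With SB203580 alone 22 of 49 passed (10 higher, 12 lower), or 44.9% beside 27.4% of all genes. Dusp1, the phosphatase that inactivates p38, read 4.66 with anisomycin, 1.39 with TNFα, and 2.66, 3.42 and 2.84 with NaCl.

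In p38α-/- MEFs, phosphatases and Zfp36 passed with stress. Of the listed genes 3 of 48, 2 of 47 and 3 of 48 passed with anisomycin, TNFα and NaCl at 2 h against untreated p38α-/- MEFs, beside 0.0731%, 0.0636% and 0.879% of all genes, and all were higher. They were Dusp1 (3.36 with anisomycin, 3.32 with NaCl), Dusp8 (2.28 with anisomycin, 1.61 with TNFα), Dusp4 (1.57 with NaCl) and Zfp36 (1.51 with anisomycin and 2.15 with TNFα, and also past the test with NaCl). Of 44 listed genes Zfp36 alone passed the test for a difference of induction between the genotypes with anisomycin (-2.57, SE 0.37, adjusted p = 0.011), and it was the 1 of 45 that fell with SB203580 under anisomycin (-2.72, SE 0.32, adjusted p = 0.00154). Between 8 h and 45 min of NaCl 4 of 49 passed, 2 in each direction, beside 5.35% of all genes (2.46% higher, 2.89% lower): Ppm1d, the phosphatase WIP1 (1.14), and the factor Atf7 (0.75) rose, and Zfp36 (-1.74) and Mef2c (-0.77) fell.

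Genes whose values ran most like those of Mapk14 were sought over the 22 arrays on which it was measured, among 12058 genes measured on all of them. They were Gca (Pearson r = 0.96, Spearman rho = 0.90), Serpinb6b (r = 0.96, rho = 0.87) and Ctsc (r = 0.94, rho = 0.79). The arrays share the pool and fall into the 2 genotypes, and the values carry no test: over the 16 wild type arrays r was 0.86, 0.64 and 0.72.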

How the data were processed

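RNA of 30 MEF samples was hybridised to 2-colour Agilent 44K arrays, with Cy5 for each sample, Cy3 for RNA pooled from 2 untreated wild type cultures, and no dye swap. Groups came from the sample labels, with 2 arrays per group, and the study's methods describe independent experiments. From the scanned intensities, the authors obtained background-corrected, dye-normalized log10 ratios of Cy5 to Cy3 with Agilent Feature Extraction (version 8.1.1.1 per the file headers, 9.1 in the submitters' processing notes), as deposited per array. The deposited table of the authors' normalized log2 values of the same arrays served as an alternative; its log base and direction were judged against the array files.

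The log10 ratios of non-control spots were converted to log2, any spot with an outlier mark in Cy5 or Cy3 was dropped, and spots were averaged per probe and probes per gene. One mean per group was fitted over all 30 arrays by ordinary least squares on the arrays measured for each gene. The variances were moderated with limma 3.58.1 (R 4.3.3). The p-values were adjusted by Benjamini-Hochberg over all genes measured, with calls at an adjusted p under 0.05. With 2 arrays per group, precision is limited by their number. The procedure was tested on simulated data. Promoter windows and figures were handled with Python 3.11.15.

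The members and gene lists were chosen with earlier results of these data known. All 10 members were named in each comparison, and of other pathway genes at most the 3 largest changes per direction of 2-fold or more, unless stated otherwise. Same-numbered arrays deviated together within a genotype. The correlation of their deviations from the group means was over 0.1 in 55 of 55 wild type pairs (0.13 to 0.65) and 6 of 6 p38α-/- pairs (0.15 to 0.45). Across genotypes it was over 0.1 in 6 of 44 pairs. The replicate number was therefore also fitted as a block within each genotype. That block takes the shared deviation out of the error and does not charge it to the difference between genotypes or from the pool. The main fit counts the arrays as independent, so in both fits the p-values of these differences may be too small. The other alternatives were keeping outlier spots, normexp background correction (offset 50) with loess, the authors' table, median centring, the brightest probe, only spots well above background, the scan day as a block, only the groups compared, and leaving out each array. The comparison within the shared scan day and the single probes were added after seeing the data.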

Additional observations from a re-analysis of the deposited data

How the results depend on the processing

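Of the members called, Map2k6 between the genotypes passed under every one of the 10 other settings and 12 left-out arrays, and Mapk14 under 8 of 9 and 10 of 10. The exception for Mapk14 was the shared scan day (-1.22, adjusted p = 0.0584). With the scan day as a block Mapk14 had no estimate, because its only unmarked p38α-/- TNFα array was scanned alone. With 2 arrays per group and outlier marks on up to 44.8% of spots, several values rest on 1 array, and signal near background limits the second Map2k6 probe. The causes of the changes below were not tested, except that fits of only the groups compared hold far fewer arrays. The share of all genes that passed is given for the main fit only. A count of members that moves with a setting or a left-out array may follow that share, and is no result about the members.

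Between the genotypes, 2 members passed, 4 with the authors' table, 4 with the replicate block and 1 within the shared scan day. In untreated p38α-/- MEFs 3 passed, 6 with outlier spots kept, 5 with normexp and loess, 6 with the authors' table, 7 with the replicate block, 5 with the scan day as a block and 0 with only the groups compared. With anisomycin 1 passed, 3 with outlier spots kept, 2 with normexp, 3 with the authors' table, 2 each with the brightest probe, the replicate block and the scan day, and 0 with only the groups compared. With TNFα 1 passed, and 0 with the scan day or only the groups compared. With only the groups compared, 0 passed in place of 3, 3 and 6 for NaCl at 45 min, 2 h and 8 h and of 4 for SB203580 alone. Between 8 h and 45 min of NaCl 2 passed, 1 with the brightest probe and 0 with only the groups compared. The same times with SB203580 went from 0 to 3 with outlier spots kept, 1 with normexp, 3 with the authors' table, 1 with the replicate block and 2 with the scan day. The interactions for anisomycin and TNFα went from 0 to 1 each with outlier spots kept. The replicate block took no call away, but it lowers the error and is no check on the arrays that deviated together.

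Leaving out 1 array gave 1 to 3 members between the genotypes, 0 to 3 in untreated p38α-/- MEFs, 0 with anisomycin and with TNFα, 0 to 1, 0 to 2 and 3 to 5 with NaCl at 45 min, 2 h and 8 h, 0 to 3 with SB203580 alone, 0 to 2 between 8 h and 45 min of NaCl, and 0 in the other comparisons. The direction reversed for Map2k6 with NaCl at 45 min, which read 0.16 with the brightest probe, with spots well above background and on its first probe, and for Mapkapk5 in untreated p38α-/- MEFs, which read -0.36 on its second probe.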
